A study of Homo sapiens with 36 samples.

Results

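The genes described here are those of the cytosolic ribosomal proteins, the protein parts of the ribosome that translates nuclear-encoded mRNA, in LoVo, a human cell line derived from colorectal cancer. They were chosen by name (rows whose whole symbol is RPL, RPS or RPLP, a number and at most a letter A, X or L with any further digits, plus RPSA) with a mean of at least 5 counts over the 36 libraries. Of 82 rows that fit the name, 77 met this minimum, out of 20802 genes in all. By symbol alone, 47 of them were counted with the large (60S) subunit (RPL and RPLP) and 30 with the small (40S) subunit (RPS). The 5 rows left out by the minimum were RPL3L, RPL10L, RPS24, RPL31 and RPL17. The cells received a MEK inhibitor, named in the labels only as compound 33 of a published series, at 0.03, 0.1, 0.3, 1, 3, 10, 30, 100, 300 or 1000 nM, or the solvent DMSO alone, for 24 h. Each dose has 3 libraries. DMSO has 6, of which 3 were sequenced on each of 2 chips. All groups are 1 cell line with no engineered allele named, and each dose was compared with the same DMSO libraries, so the 10 comparisons share their controls.

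MEK is the kinase that phosphorylates and activates ERK, the last kinase of the MAPK cascade, and growth signals through this cascade and through mTOR both act on protein synthesis. Ribosomal proteins are assembled with ribosomal RNA in the nucleolus in near-equal numbers, and free copies are degraded. Their mRNAs are among the most abundant in dividing cells. Most begin with a C followed by a run of pyrimidines, the 5′ terminal oligopyrimidine (TOP) motif, through which mTOR and the RNA-binding protein LARP1 control how much of the mRNA is translated and how long it lasts.

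The first bases of the transcript were read for the members found among RefSeq gene starts (GRCh38.p14), because a shared start is what makes these mRNAs a class. Starts were found for 62 of the 77 members. In 44 of these 62 (71.0%), at least 1 listed start was a C followed by at least 4 bases that were each C or T, against 1404 of 27305 genes (5.14%) in the whole table. The search was made on the strand with the same letters as the mRNA, at the first base of the gene. Where such a run could begin up to 5 bases to either side of the start, it was found in 51 of 62 members (82.3%) and in 25.2% of all genes. Each window below holds 10 bases before the start and 20 bases from it, with the run from the first base in capitals. The first 4 genes fell at 1000 nM, the next 3 rose, RPS6 and RPLP0 passed the test in neither direction, and the last 4 have no such run.
RPS14: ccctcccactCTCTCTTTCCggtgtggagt
RPL22L1: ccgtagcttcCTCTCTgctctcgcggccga
RPL14: ggtcttcttcCTTCTCgcctaacgccgcca
RPL35A: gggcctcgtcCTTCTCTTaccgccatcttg
RPL11: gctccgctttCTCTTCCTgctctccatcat
RPLP2: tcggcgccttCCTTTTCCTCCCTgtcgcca
RPL21: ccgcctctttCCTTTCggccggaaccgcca
RPS6: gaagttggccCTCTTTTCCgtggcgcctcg
RPLP0: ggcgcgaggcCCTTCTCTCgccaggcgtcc
RPS29: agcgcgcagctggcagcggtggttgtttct
RPL26L1: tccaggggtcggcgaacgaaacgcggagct
RPL7L1: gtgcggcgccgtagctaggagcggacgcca
RPS27L: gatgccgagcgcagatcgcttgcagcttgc

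The RPS14 window lies at chr5:150449720-150449749 on the minus strand and the RPL22L1 window at chr3:170870176-170870205 on the minus strand. The windows of RPL14 (chr3:40457329-40457358) and RPL11 (chr1:23691796-23691825) are on the plus strand, as is that of RPLP2 (chr11:809957-809986). The window of RPS6 is at chr9:19380217-19380246 on the minus strand. Runs ranged from 6 to 19 bases, the longest being that of RPL39. Of the members with a listed start, 9 of 14 that fell at 1000 nM (as defined below) and 7 of 11 that rose had a run, as did 28 of 37 that were not called. Members with and without this start thus stood among those that fell, those that rose and those that were not called. These are matches of letters in a reference and do not show where transcription started in LoVo cells. Of the paralogues with a listed start, RPL22L1 had the run, and RPL26L1, RPL7L1 and RPS27L did not.

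The depth of a library lay between 2972186 and 4751839 counts (median 3952427). RNA was read by targeted amplicon sequencing (Ion AmpliSeq), in which each gene has its own amplicon, so counts of different genes do not rank their RNA levels, and every level below is set only against the same gene in other libraries. Many ribosomal protein genes have processed pseudogenes, and reads from near-identical copies could be shared, which was not tested. DUSP6, a target of ERK signalling, fell from 64.2 ± 3.27 to 1.89 ± 0.468 CPM (SD, n = 3 pair means of DMSO and 3 libraries at 1000 nM), where CPM is a gene's count relative to the TMM-scaled library total. Of the 11 colorectal epithelial markers, all 11 were measured above the low-count filter. Their summed level, on library totals without TMM, was 3450 to 3641 CPM in DMSO and 3131 to 3386 CPM at 1000 nM. At 1000 nM 4 of the 11 were called higher and 4 lower (as defined below), beside 21.2% and 20.7% of all genes tested. Their log2 fold changes ran from -0.65 to 2.29. A sum over genes also follows their amplicons. The 7 fibroblast markers, also without TMM, summed to 3.26 to 4.42 CPM in DMSO and 39.5 to 43.4 CPM at 1000 nM. The 3 of them that passed the low-count filter were all called higher at 1000 nM: COL1A1 by 2.71, COL3A1 by 3.71 and LUM by 4.07 on the log2 scale. COL1A2 and THY1 were at 0 in both. Among blood markers, LYZ went from 10.9 ± 1.75 to 71.1 ± 7.76 CPM (SD, n = 3), while PTPRC and CD3E were at 0 in both. The part of these marker changes in the results was not tested. Libraries 0.1 nM replicate 2, 1 nM replicate 1 and 1000 nM replicate 1 stood apart from the other libraries of their groups.

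The 77 members together took 16.1% to 18.7% of all counts in a library, with a median of 17.9%. In DMSO this share was 17.5% at the lowest, 17.7% at the median and 17.8% at the highest. At 1000 nM it lay between 18.4% and 18.5%, and at 300 nM between 18.1% and 18.4%. At 3 nM it was 18.1% to 18.4%, and at 30 nM 17.9% to 18.3%. The libraries of these doses were above all 6 DMSO libraries by less than 1 percentage point. The lowest share, 16.1%, was that of 0.1 nM replicate 2. The summed share of counts thus stayed between 16.1% and 18.7% across the dose range. It follows the amplicons as well as the RNA, so it does not show how the mRNAs behaved as a mass.

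A member is called at a dose when its adjusted p from edgeR's quasi-likelihood test is below 0.05 against both DMSO chips (the larger of the 2 p-values is adjusted) and the direction is the same against both. At 0.03, 0.1 and 0.3 nM, 0 of 77 members were called, beside 0% of all 12102 genes tested. At an unadjusted p below 0.05 the numbers at these doses were 0, 6 and 2 members (0%, 7.79% and 2.6%), beside 0.347%, 2.47% and 2.73% of all genes. DESeq2 and limma voom also called 0. With no filter on low counts 4 members were called at 0.3 nM, and with only the libraries compared in the fit 3 were, all of them lower. At 1 nM 7 members rose and 4 fell, in all 14.3% of members. Of all genes 7.97% were called at this dose, 3.95% higher and 4.02% lower. With 3 nM, 1 member rose and 1 fell (2.6%), beside 13.3% of all genes, 6.66% higher and 6.68% lower. With 10 nM, 2 rose and 9 fell (14.3%), beside 26.8%, of which 13.5% were higher and 13.3% lower. Treatment with 30 nM gave 3 rises and 16 falls (24.7%), beside 36%, of which 18% were higher and 18% lower. Treatment with 100 nM gave 3 rises and 11 falls (18.2%), beside 37.2%, of which 18.4% were higher and 18.8% lower. At 300 nM 13 members rose and 18 fell (40.3%), beside 45.1% of all genes, 22.1% higher and 23% lower. At 1000 nM 14 rose and 16 fell (39%), beside 41.8%, of which 21.2% were higher and 20.7% lower. The members moved both ways at every dose that gave calls. Their share called was above that of all genes at 1 nM and below it at each dose from 3 nM. The 1 nM count of 11 fell to 2 without 1 nM replicate 1, and the shares lay close together at 300 and 1000 nM. Whether the shares differ was not tested.

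**Figure D1:**
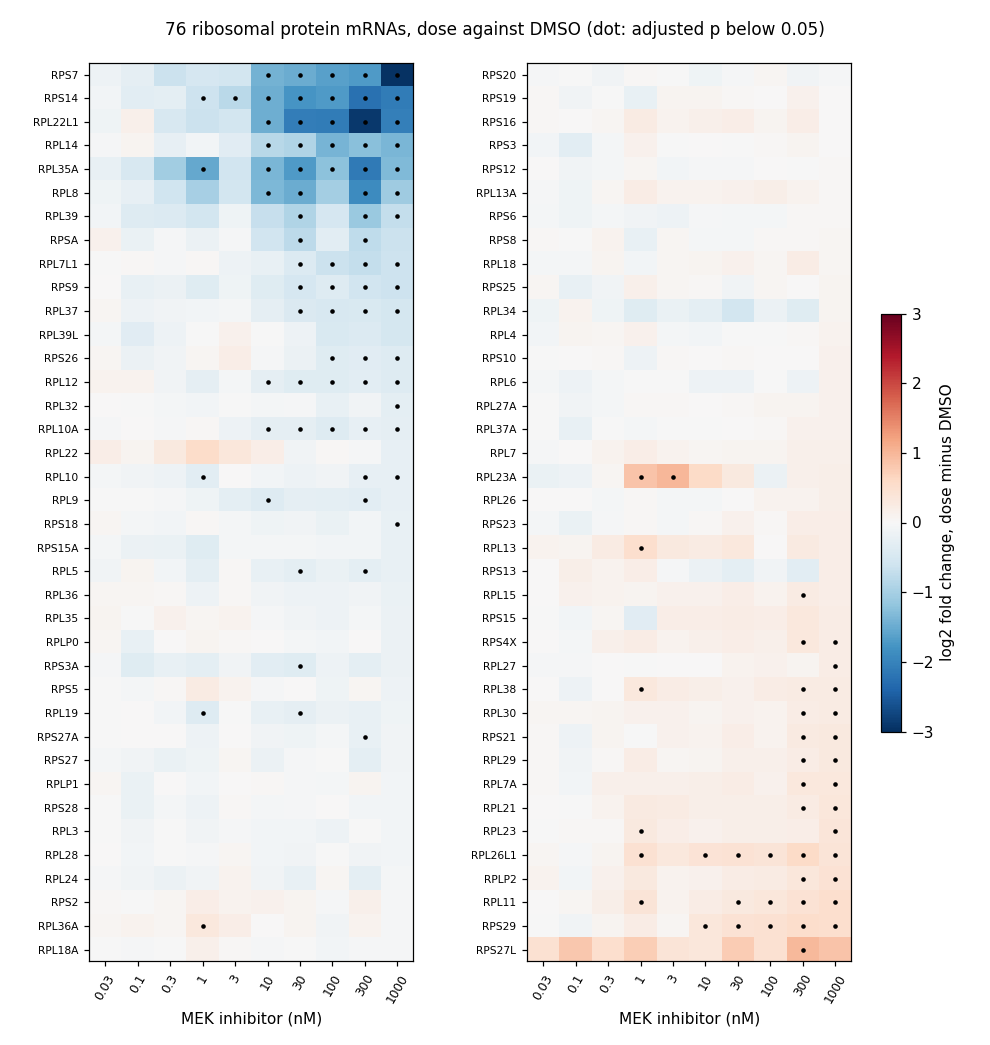
Log2 fold change of 76 of the 77 members (rows, ordered by the value at 1000 nM) at each dose (columns, nM) against DMSO; blue is lower, red is higher, and a dot marks an adjusted p below 0.05. The dots gather at the top of the left panel, in members that fell from 10 nM up, and at the bottom of the right panel, in members that rose at 300 and 1000 nM, with 36 members carrying no dot.

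The median log2 fold change of the members stayed within 0.08 of 0 at every dose. Each library was made from 10 ng of RNA, so changes are relative to the other genes of a library. The amount of RNA per cell was not measured. The lowest median was that of 0.1 nM (-0.07) and the highest that of 3 nM (0.03). For 1000 nM it was -0.03, beside 0.01 for all genes tested. The median size of the change, regardless of direction, was 0.21 for members and 0.42 for all genes at 1000 nM. It was 0.23 and 0.45 at 300 nM. At 1000 nM, 63 of 77 members changed by less than 0.5 on the log2 scale, and for 49 of them the 95% interval lay wholly within 0.5 of 0. Both subunits had members in both directions: 10 of 47 large-subunit proteins rose and 11 fell, with a median of -0.03, and 4 of 30 small-subunit proteins rose and 5 fell, with a median of 0.01. In 12 members all 3 libraries at 1000 nM were above all 6 DMSO libraries (22.9% of all genes were), and in 18 all 3 were below (22.4% of all genes). At 300 nM these counts were 22 above and 24 below, beside 26.1% and 26.4%.

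The counts depended on single libraries. Without 1000 nM replicate 1, 15 members were called at 1000 nM in place of 30, and 14 of the original calls were kept, 11 of them lower and 3 higher. Without DMSO chip1 replicate 2, chip2 replicate 1 or chip2 replicate 2, 19 were called. At 300 nM 19 were called without 300 nM replicate 3 and 20 without DMSO chip1 replicate 2. At 30 nM 10 were called without replicate 2 of that dose, and at 10 nM 4 without replicate 3 and 7 without DMSO chip2 replicate 1. At 1 nM the count of 11 fell to 2 without 1 nM replicate 1, to 7 without 1 nM replicate 2, and to between 3 and 7 when 1 DMSO library was left out. Without the 3 libraries that stood apart, 6 members rose and 15 fell at 10 nM, 11 rose and 17 fell at 30 nM, and 9 rose and 17 fell at 100 nM. In the same setting 17 rose and 20 fell at 300 nM, and 9 rose and 17 fell at 1000 nM. Scaling by the upper quartile gave 16 higher and 11 lower members for 1000 nM, 5 higher and 10 lower for 100 nM, 5 higher and 14 lower for 30 nM, and 4 higher and 7 lower for 10 nM. Scaling by total counts gave 9 higher and 10 lower for 100 nM and 8 higher and 13 lower for 30 nM. A minimum of 1 CPM in 3 libraries gave 5 higher and 20 lower for 300 nM, and no filter on low counts gave 6 higher and 11 lower for 1 nM.

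Over the 10 doses, 36 members were never called (46.8%, beside 43.2% of all genes). Called higher at 1 or more doses and never lower were 19 (24.7%, beside 28%), and 22 were called lower and never higher (28.6%, beside 28.4%). No member was called in both directions, as 0.421% of all genes were. The 7 members that fell at every dose from 10 nM up were RPL10A, RPL12, RPL14, RPL22L1, RPL35A, RPS14 and RPS7 (9.09%, beside 10.5% of all genes). RPL26L1 and RPS29 rose at every dose from 10 nM up (2.6%, beside 10.4%). At both 300 and 1000 nM, 14 fell (18.2%, beside 17.4%) and 11 rose (14.3%, beside 17.9%). The calls that held at 1000 nM under every other setting and with any 1 library left out were 9 of the 16 falls (RPL12, RPL14, RPL22L1, RPL37, RPL7L1, RPS14, RPS26, RPS7 and RPS9) and 3 of the 14 rises (RPL11, RPL23 and RPS29).

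RPS14, a protein of the small-subunit platform whose gene is lost from 1 chromosome in the 5q- form of myelodysplastic syndrome, fell at the lowest dose of any member that fell without interruption up to 1000 nM. Its level was 116 CPM at the lowest, 119 at the median and 128 at the highest in the 6 DMSO libraries. It was 44.3, 49.2 and 37.1 CPM at 10 nM, 20.7, 31.2 and 25.2 CPM at 300 nM, and 20.8, 28.4 and 33.8 CPM at 1000 nM. All treated libraries of these 3 doses were below the lowest DMSO library. The log2 fold change was -0.62 at 1 nM (SE 0.13, edgeR adjusted p = 0.00294), -0.81 at 3 nM (SE 0.13, edgeR adjusted p = 1.61e-05) and -2.11 at 1000 nM (SE 0.15, edgeR adjusted p = 2.04e-16), the last being 4.31-fold lower.

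RPL22L1, a paralogue of the large-subunit protein RPL22 that can take part in ribosomes in its place, fell 4.12-fold at 1000 nM. DMSO libraries ranged from 190 to 280 CPM with a median of 240. The 3 libraries held 95.8, 102 and 61 CPM at 10 nM, 36.5, 35 and 24.5 CPM at 300 nM and 39.4, 43.6 and 88.8 CPM at 1000 nM, with no overlap with DMSO. The log2 fold change was -1.46 at 10 nM (SE 0.32), -2.90 at 300 nM (SE 0.35, edgeR adjusted p = 1.94e-07) and -2.04 at 1000 nM (SE 0.33, edgeR adjusted p = 1.56e-05). RPL22 itself was not called at any dose: its DMSO libraries ranged from 29.2 to 49.8 CPM, those at 1000 nM were at 42.2, 20.2 and 29.4 CPM, and the difference was -0.25 with a 95% interval from -0.61 to 0.11. It was called lower at 1000 nM when 1000 nM replicate 1 was left out (-0.54, edgeR adjusted p = 0.0351) and without the 3 libraries that stood apart (-0.54, edgeR adjusted p = 0.0349).

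RPL14, a large-subunit protein, had 19.5 to 28 CPM in DMSO and 9.57, 6.73 and 10.6 CPM at 1000 nM, which was 2.59-fold lower (log2 -1.37, SE 0.21, edgeR adjusted p = 4.35e-06). Its groups did not overlap. RPS7, a small-subunit protein that also binds the p53 regulator MDM2, was read by few counts: 14 to 20 per DMSO library and 1, 2 and 4 at 1000 nM. The libraries did not overlap and the log2 fold change was -2.97 (95% interval -4.07 to -1.87), but its size rests on these few counts.

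The other falls that held under every setting were smaller. RPS9, which lines the channel through which mRNA enters the small subunit, had 1982 to 2338 CPM in DMSO and 1071, 1584 and 1565 CPM at 1000 nM (log2 -0.61, SE 0.13, edgeR adjusted p = 0.000658). RPL7L1, a protein related to RPL7, went from 74.6 to 93.2 CPM in DMSO to 53.8, 64.6 and 47.3 CPM at 1000 nM (log2 -0.62, SE 0.12). RPL37, a zinc-binding protein of the large subunit, went from 130 to 152 CPM to 110, 81 and 105 CPM (log2 -0.52, SE 0.10). In all 3 the libraries at 1000 nM were below every DMSO library. RPS26, a small-subunit protein near the channel through which mRNA leaves, fell by 0.39 on the log2 scale (SE 0.10, edgeR adjusted p = 0.00126). RPL12, at the base of the stalk, changed by -0.28, -0.37, -0.36, -0.33 and -0.39 at 10, 30, 100, 300 and 1000 nM. RPL10A, in the mobile L1 stalk, changed by -0.27, -0.27, -0.39, -0.24 and -0.27 at these doses, and its call was lost in 5 of 24 alternatives at 300 nM and in 2 of 24 at 1000 nM.

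**Figure D2:**
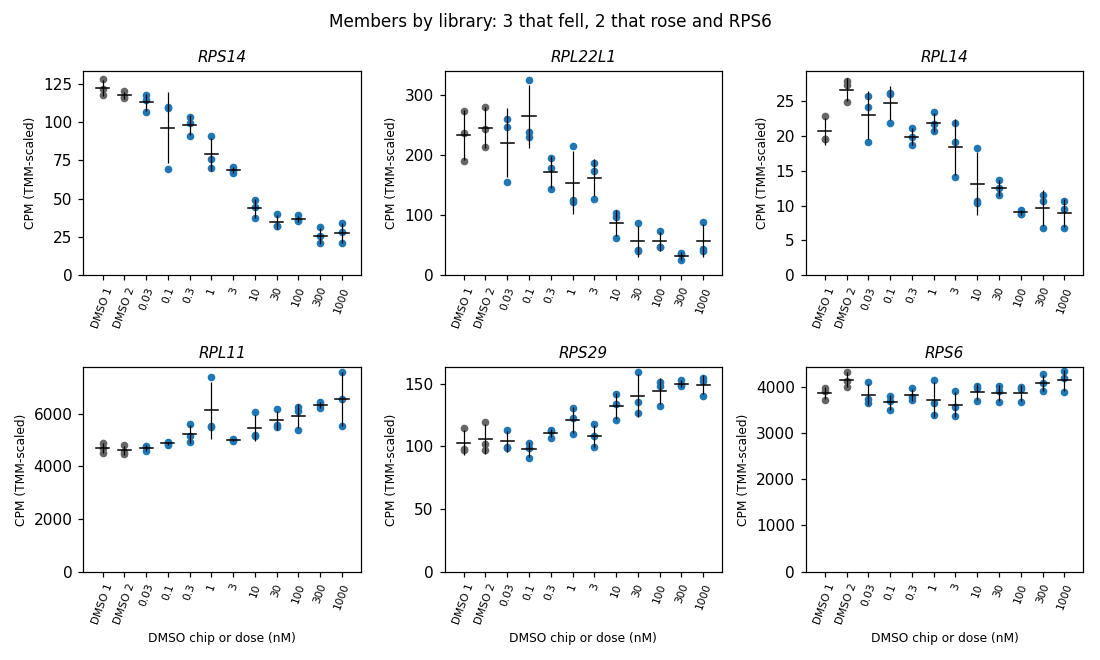
CPM (scaled by TMM, linear axis from 0) of 6 members in every library of both DMSO chips (grey) and of each dose (blue); the line is the mean and the bar 1 SD of 3 libraries. RPS14, RPL22L1 and RPL14 are lower from 10 nM up, RPL11 and RPS29 are higher at 300 and 1000 nM, and RPS6 stays between 3888 and 4342 CPM at 1000 nM, within or just above its DMSO range.

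The rises were smaller than the largest falls. RPS29, a small zinc-binding protein of the 40S head, showed the largest rise called at 1000 nM, with 96.6 to 119 CPM in DMSO and 140, 154 and 152 CPM at 1000 nM. The libraries at 1000 nM were above every DMSO library, 1.43-fold on average (log2 0.51, SE 0.10, edgeR adjusted p = 9.73e-05). RPL11, which joins RPL5 and the 5S RNA in a particle that also binds MDM2, had 4492 to 4894 CPM in DMSO, 6439, 6341 and 6206 CPM at 300 nM and 7606, 5539 and 6579 CPM at 1000 nM. Its groups did not overlap, and the change was 0.44 at 300 nM and 0.50 at 1000 nM (SE 0.10, edgeR adjusted p = 4.04e-05). RPL23, a large-subunit protein at the interface between subunits, had 1732 to 1836 CPM in DMSO and 2396, 2117 and 2341 CPM at 1000 nM (log2 0.36, SE 0.09, edgeR adjusted p = 0.000725).

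Other members that rose at 1000 nM lost the call when 1000 nM replicate 1 was left out. RPLP2, an acidic protein of the stalk that recruits elongation factors, had 6862 to 7635 CPM in DMSO and 11245, 8187 and 9647 CPM at 1000 nM. Its log2 fold change was 0.42 with all libraries and 0.29 without that replicate (edgeR adjusted p = 0.0909). RPL21 (0.33), RPL7A (0.31), RPL29 (0.29) and RPS21 (0.29) each had their highest value in that replicate, and without it the changes were 0.23, 0.14, 0.20 and 0.12. Smaller rises at 1000 nM were those of RPL30, RPL38, RPL27 and RPS4X, between 0.22 and 0.26.

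RPL5, the partner of RPL11 in the 5S particle, did not rise with it. Its DMSO libraries ranged from 1722 to 1947 CPM, and it had 1528, 1606 and 1380 CPM at 300 nM and 1352, 1661 and 1775 CPM at 1000 nM. It fell at 300 nM by 0.30 on the log2 scale, and the value at 1000 nM was -0.22 (edgeR adjusted p = 0.0949). At 1000 nM it was called lower in 5 of 24 alternatives, among them that without 1000 nM replicate 3 (-0.30, edgeR adjusted p = 0.0236). The difference between the changes of these 2 genes was not tested. Among the 3 stalk proteins RPLP2 alone was called at 1000 nM: RPLP0 changed by -0.17 (95% interval -0.39 to 0.04) and RPLP1 by -0.09 (-0.28 to 0.10). Without the 3 libraries that stood apart RPLP0 was called lower (-0.22, edgeR adjusted p = 0.0255).

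RPS6, the small-subunit protein phosphorylated by S6 kinase and by the ERK-activated kinase RSK, was measured at 3710 to 4323 CPM in DMSO and at 4342, 3888 and 4180 CPM at 1000 nM. The groups overlapped at this dose, and the change was 0.05 with a 95% interval from -0.12 to 0.21. RPS19, the gene most often mutated in Diamond-Blackfan anaemia, had 5272 to 5682 CPM in DMSO and 5754, 5508 and 4991 CPM at 1000 nM, a change of 0.00 (-0.22 to 0.22). RPS27A, which is made as a fusion with ubiquitin, was at 1510 to 1571 CPM in DMSO and at 1197, 1537 and 1541 CPM at 1000 nM. It fell at 300 nM by 0.22 on the log2 scale, a call lost in 7 of 24 alternatives, and at 1000 nM its value was -0.11 (-0.27 to 0.05).

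At 1000 nM 21.2% of all genes tested were called higher and 20.7% lower, beside which the members are given by role. Here, 1 of the 6 tested proteins around the exit tunnel of the nascent chain fell at 1000 nM (RPL39) and none of the other 5 was called, with a median of -0.02. Of the 4 proteins at the mRNA entry and decoding region, RPS9 fell and the other 3 were not called, with a median of -0.01. Of 12 tested genes mutated in Diamond-Blackfan anaemia, a failure of red cell production caused by loss of 1 copy of a ribosomal protein gene, 3 rose (RPL11, RPS29 and RPL27) and 3 fell (RPS7, RPL35A and RPS26), with a median of 0.07.

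The paralogues, copies that can replace a standard protein or have other uses, moved unlike one another. RPL22L1 and RPL7L1 fell and RPL26L1 rose at 1000 nM. RPL26L1 had 56 to 68.1 CPM in DMSO, 79.2, 78.1 and 78.7 CPM at 10 nM, 89.2, 83.5 and 92.9 CPM at 300 nM, and 98.5, 70.8 and 64.7 CPM at 1000 nM. The groups did not overlap at 10 and 300 nM and overlapped at 1000 nM. Its change was 0.58 at 300 nM (SE 0.12, edgeR adjusted p = 0.000217) and 0.40 at 1000 nM, and the latter was 0.19 without 1000 nM replicate 1. RPL26, its partner, was not called at any dose (0.18 at 1000 nM, edgeR adjusted p = 0.195), but was called in 2 of 24 alternatives.

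RPS27L, a p53-inducible relative of RPS27, was called higher at 300 nM alone, where its libraries held 5.57, 3.79 and 7.98 CPM against 1.65 to 4.26 in DMSO (log2 0.97, SE 0.37, edgeR adjusted p = 0.0393). The groups overlapped, and the call was lost in 9 of 24 alternatives. At 1000 nM its value was 0.84 (edgeR adjusted p = 0.0915), called in 4 of 24 alternatives, while RPS27 had -0.10 (edgeR adjusted p = 0.854). RPL39L, a relative of RPL39 known from testis, was at 16.2 to 18.7 CPM in DMSO and at 13.5, 12.6 and 10.9 CPM at 1000 nM, without overlap and without a call (-0.52, edgeR adjusted p = 0.0867), and was called in 4 of 24 alternatives. Of the remaining partners, RPL7 (0.16) and RPL3 (-0.08) were not called at 1000 nM. RPL7 was called in 4 of 24 alternatives, and RPL3 without the 3 libraries that stood apart (-0.20, edgeR adjusted p = 0.0199). RPL10 was at the threshold (-0.25, edgeR adjusted p = 0.0494), a call lost in 14 of 24 alternatives.

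RPL23A, a large-subunit protein, was called higher at 1 and 3 nM and at no other dose. It had 8.07 to 9.88 CPM in DMSO, 21, 18.2 and 10.7 CPM at 1 nM and 17.1, 20 and 16.8 CPM at 3 nM, above every DMSO library at both doses. It rose by 0.86 at 1 nM (SE 0.24, edgeR adjusted p = 0.0132) and by 0.99 at 3 nM (SE 0.23, edgeR adjusted p = 0.0012). At 10 nM the value was 0.58, and at 1000 nM, with 11.3, 10.2 and 9.41 CPM, it was 0.18; neither was called. The call at 1 nM was lost in 6 of 24 alternatives. RPL13 and RPL36A, chosen after their values were seen, were called higher at 1 nM alone, by 0.50 and 0.32.

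Some members spread widely between libraries of 1 dose. RPL8, a large-subunit protein close to the catalytic centre, had 1080 to 1375 CPM in DMSO, 359, 411 and 215 CPM at 300 nM and 185, 517 and 1024 CPM at 1000 nM. RPL39 had 910 to 986 CPM in DMSO and 274, 602 and 848 CPM at 1000 nM. RPL35A had 39.5 to 76.9 CPM in DMSO and 8.72, 14.3 and 40.3 CPM at 1000 nM. In all 3, replicate 1 was the lowest and replicate 3 the highest library of that dose, and RPL35A overlapped with DMSO through replicate 3.

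At 1000 nM the changes of RPL8 (-1.06, SE 0.41, edgeR adjusted p = 0.0416), RPL39 (-0.72, SE 0.29, edgeR adjusted p = 0.0451) and RPL35A (-1.32, SE 0.41, edgeR adjusted p = 0.0122) were called, and without replicate 1 they were -0.65, -0.40 and -0.96 and not called. The calls of these genes were also lost without replicate 2 and were kept without replicate 3. Over the 24 alternatives their lowest values were -1.78, -1.12 and -2.24. At 300 nM, where replicates lay closer together, RPL8 fell by 1.88 (SE 0.42, edgeR adjusted p = 0.000736) and RPL39 by 1.11 (SE 0.29, edgeR adjusted p = 0.00283) on the log2 scale, and the calls of these 2 held under every alternative. RPSA, the laminin-binding protein of the small subunit, had the same order of libraries at 1000 nM (2.81, 4.68 and 8.44 CPM, against 6.28 to 10.6 in DMSO) and a change of -0.65 that was not called (edgeR adjusted p = 0.0765). Without 1000 nM replicate 3 the change was -1.19 and called (edgeR adjusted p = 0.00402), and it was also called with DMSO counts summed over chips (edgeR adjusted p = 0.0392) and against the mean of both chips (edgeR adjusted p = 0.0301).

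These members tended to be low in the same libraries. An exception was 0.1 nM replicate 2, the lowest library of its dose for RPL39 (527 CPM) and the highest for RPL35A (48.7 CPM). Over the 36 libraries, taken as deviations from their group means, Pearson's r was 0.88 between RPL8 and RPL39, 0.78 between RPL8 and RPL35A and 0.80 between RPL8 and RPL22L1. RPL24, looked up after its values were seen, had r = 0.93 with RPL8 and 0.90 with RPL39 and was not called at any dose, with 259, 443 and 515 CPM at 1000 nM against 405 to 444 in DMSO. RPS15, also widely spread, had r = -0.33 with RPL8. These points share the libraries and their scaling. The within-group SD on the log2 scale was 0.53 for RPL35A, 0.52 for RPL8 and 0.36 for RPL39, beside a median of 0.13 over all members.

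**Figure D3:**
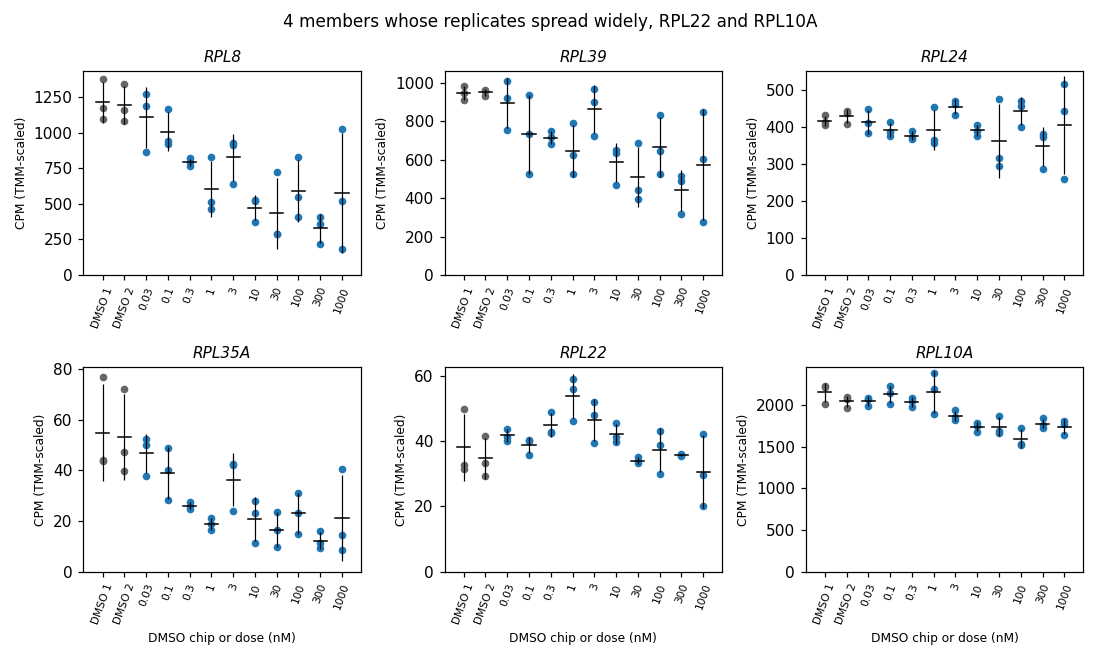
CPM (scaled by TMM, linear axis from 0) of RPL8, RPL39, RPL24, RPL35A, RPL22 and RPL10A in every library of both DMSO chips (grey) and each dose (blue); the line is the mean and the bar 1 SD of 3 libraries. RPL8, RPL39 and RPL24 spread most at 1000 nM (185 to 1024 CPM for RPL8), and RPL35A spreads in DMSO as well. RPL10A stays between 1641 and 1816 CPM at 1000 nM, below all its DMSO libraries.

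The large falls lay mostly in members with few counts. Among the 17 members with a mean under 1000 counts per library, 2 rose and 8 fell at 1000 nM, the median was -0.52, and 5 changed by at least 1 on the log2 scale. Among the 60 with at least 1000 counts, 12 rose and 8 fell, the median was 0.03, and RPL8 alone changed by at least 1. Of all genes tested, 21.2% were called higher and 20.7% lower at 1000 nM, and other genes of like counts were not compared. The split at 1000 counts was made after the values were seen. Counts here follow the amplicon as well as the RNA, so these 17 are not shown to be the rarer mRNAs.

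**Figure D4:**
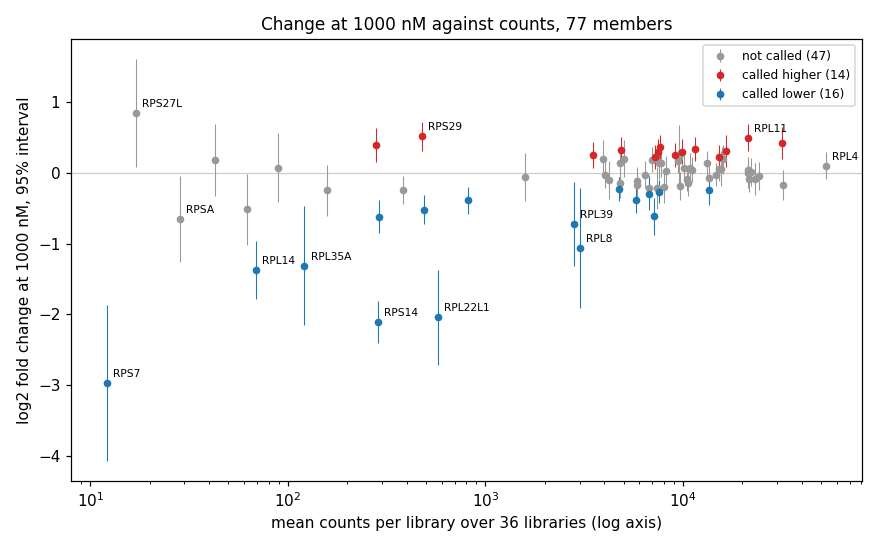
Log2 fold change at 1000 nM with its 95% interval (vertical axis) against the mean counts per library over 36 libraries (log axis) for 77 members; red marks the 14 called higher, blue the 16 called lower and grey the 47 not called. Of the members with at least 1000 counts RPL8 alone changed by at least 1, and RPS7, RPS14, RPL22L1, RPL14 and RPL35A lie at or below -1.32 with fewer counts.

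Genes that build or use ribosomes without being part of them are given beside the members. Of 39 ribosome biogenesis factors tested, 37 fell and 0 rose at 1000 nM, with a median of -1.36. DDX21, an RNA helicase of the nucleolus, went from 179 ± 10.9 to 47.4 ± 5.14 CPM, and GNL3, the nucleolar GTPase nucleostemin, from 145 ± 11.6 to 43 ± 4.94 CPM (SD, n = 3). LYAR, another nucleolar protein, went from 126 ± 4.48 to 25.2 ± 5.87 CPM. With 1 nM the median of this list was -0.27 and that of the members 0.01. With 10 nM these medians were -0.85 and -0.04. Of 14 chaperones and importers of ribosomal proteins, 12 fell and 0 rose, with a median of -0.80, and the importins KPNB1 and IPO7 changed by -0.94 and -0.74.

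Proteins of the mitochondrial ribosome, a separate particle, fell in 39 of 72 cases and rose in 2 at 1000 nM, with a median of -0.49. MRPL12 changed by -1.50 and MRPL15 by -1.04, while MRPS6 rose by 0.87. Of 35 initiation factors, 19 fell and 2 rose, with a median of -0.41, among them EIF4A1, the helicase of the cap-binding complex (-0.76), and EIF1AX (-0.86). Of 13 elongation and termination factors 7 fell and 2 rose, with a median of -0.61; EIF5A, which helps ribosomes past stalling sequences, changed by -0.92.

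Other mRNAs of the TOP class were closer to the members: of 16 tested, 2 rose and 2 fell, with a median of 0.11. EEF1A1, the main elongation factor, rose by 0.31 (SE 0.08), and EEF1B2 and NPM1 fell by 0.65 and 0.51 on the log2 scale. FAU and RPL36AL, ribosomal proteins that the name rule does not take, had values of 0.10 and 0.29, of which that of RPL36AL was called (edgeR adjusted p = 0.0423). That call was lost in 13 of 24 alternatives, and the value was 0.19 without 1000 nM replicate 3 (edgeR adjusted p = 0.266). Of 25 rows named as ribosomal protein pseudogenes, 12 had enough counts to test, 1 rose (RPL23AP64, 0.88) and 0 fell, with a median of 0.31.

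Among 16 regulators of translation, 4 rose and 4 fell at 1000 nM, with a median of -0.06. EIF4EBP1, a repressor of cap-dependent initiation that mTOR switches off, went from 279 ± 6.62 to 50 ± 9.03 CPM (log2 -2.49, SE 0.12), while its relative EIF4EBP2 went from 153 ± 8.85 to 382 ± 73.5 CPM (1.32, SE 0.11). PDCD4, an inhibitor of the helicase EIF4A1, rose from 195 ± 11 to 490 ± 27.4 CPM (1.33, SE 0.09; SD, n = 3 in each). These lists are described by their counts and medians, and the difference between them and the members was not tested.

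**Figure D5:**
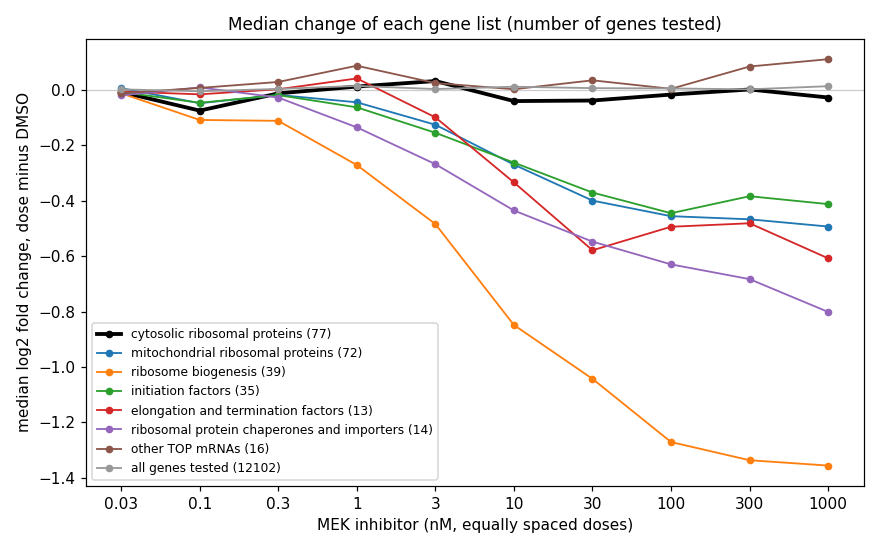
Median log2 fold change against DMSO (vertical axis) at each dose (nM, doses equally spaced) for the 77 cytosolic ribosomal proteins (black), 6 other gene lists (coloured) and all genes tested (grey). The black line stays within 0.08 of 0 while ribosome biogenesis reaches -1.36 and mitochondrial ribosomal proteins -0.49 at 1000 nM.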

How the data were processed

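RNA of 36 libraries was read as amplicons (Ion AmpliSeq). The values are raw counts per gene that the authors deposited, without normalization. Reads were placed on hg19, per the submitters' processing notes. For the aligner and counter, the name is not given in the sources used here. Spike-ins took 10 rows, which held 0 counts. No column was left without a sample. Total counts per library ranged from 2972186 to 4751839, and no molecular identifiers are named. The tests take their precision from the spread among libraries, as given below.

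Counts were tested with edgeR 4.0.16 in R 4.3.3 (limma 3.58.1): filterByExpr kept 12102 genes, including all 77 members, and libraries were scaled by TMM. A robust quasi-likelihood model was fitted over 12 groups (24 residual degrees of freedom). The labels give the chip of DMSO libraries only, so each dose was tested against each DMSO chip, and the larger p was adjusted by Benjamini-Hochberg over all genes. A gene was called when this was below 0.05 with 1 direction. Log2 fold changes are against the mean of both chips, with the larger SE. Between the 2 DMSO chips 0 members and 0 genes were called. Levels are CPM on TMM-scaled library totals, except the marker sums, which are on totals without TMM. Where DMSO is given as mean ± SD, same-numbered libraries of both chips were averaged (n = 3), since they deviated together (r of 0.287, 0.14 and 0.252). Replicate numbers of a dose and DMSO did not pair (r from -0.161 to 0.214). The labels do not say how cultures were separated, so each p-value reflects only the spread among these libraries, which may be technical.

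Members and gene lists were chosen with earlier results of these data known. Named members are up to 10 that rose and 10 that fell most at 1000 nM, the largest called change in each direction at other doses, RPLP0, RPSA, RPS6, RPL5, RPL11, RPS19 and RPS27A, and the paralogues with their partners; each other list gives up to 3 genes by adjusted p. Other names were chosen after their values were seen. The test was tried on simulated counts first. Promoter starts are from RefSeq (GRCh38.p14), matched by symbol. DESeq2 1.42.0, limma voom, other scalings, filters, controls, a replicate block and leaving out libraries were tried as alternatives. Some items are not reported here.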

Additional observations from a re-analysis of the deposited data

How the results depend on the processing

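Counts of called members moved by over 1.5 times under these alternatives. With 1 test against the mean of both DMSO chips, 24, 9, 20, 31 and 23 members were called at 1, 3, 10, 30 and 100 nM. With only the libraries compared in the fit, 3, 11, 25 and 31 were called at 0.3, 3, 10 and 100 nM. With no filter on low counts, 4, 17 and 5 were called at 0.3, 1 and 3 nM. Against chip 2 alone 17 and 5 were called at 1 and 3 nM, and against chip 1 alone 4 at 3 nM, as with DMSO counts summed over chips and with upper-quartile scaling. Without the 3 libraries that stood apart, 7, 21 and 26 were called at 3, 10 and 100 nM. Leaving out 1 library gave 0 at the 3 lowest doses and between chips, 2 to 10 at 1 nM, 2 at 3 nM, 4 to 10 at 10 nM, 10 to 20 at 30 nM, 11 to 15 at 100 nM, 19 to 24 at 300 nM and 15 to 30 at 1000 nM. The cause of these moves was not tested. With a replicate block, 27 members were called at 1000 nM and 13 at 100 nM; other doses kept their counts. The change at 1000 nM reversed only in values near 0: RPS6 was -0.0052 against chip 2 alone; RPS19 was -0.0261 against chip 1 alone, -0.0271 with no filter, -0.0213 with DMSO summed, -0.0078 with TMM from other genes, -0.0366 with at least 1 CPM in 3 libraries, -0.002 with voom and -0.0462 without the libraries that stood apart; RPS27 was 0.0934 and FAU -0.0584 without these. With 1 library left out, RPS19 ranged from -0.0514 to 0.0529, RPS27 from -0.2267 to 0.0882 and FAU from -0.0636 to 0.2222, the reversed ends of RPS27 and FAU being those without 1000 nM replicate 1. Of 21 named members called at 1000 nM, 10 kept the call under all 24 alternatives and 11 lost it under at least 1. No scaling moved the median of all genes by over 0.1. Scaling by TMM holds the bulk of genes near 0 by design, so this is no test of the members.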
